A study of Drosophila melanogaster with 17 samples.

Results

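The Jonah and trypsin genes of Drosophila melanogaster encode digestive serine proteases, and 32 of the 13479 genes listed in the glial TRAP-seq data belong to this group. They were selected by FlyBase symbol alone: 16 Jonah genes (symbols beginning with Jon and a digit), 11 trypsin genes (symbols ending in Try), 4 Ser genes (Ser6, Ser7, Ser8 and Ser12) and yip7. All 32 symbols of this form in the reference annotation were present in the table. Expression was given as TPM, transcript abundances scaled to a fixed total, a measure corrected for transcript length and library total, so that levels can be compared between genes.

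TRAP-seq sequences the mRNA bound to a tagged ribosomal protein. Here all 17 libraries came from flies in which the pan-glial driver repo-GAL4 expressed UAS-GFP::RpL10A, and ribosomes were pulled down from pooled heads taken at lights-on. Traumatic brain injury (TBI) was given as repeated strikes to the head of awake flies, and sham flies received none (nonTBI in the labels). Day 1 and day 3 after injury were each covered by 3 sham and 3 TBI libraries. Day 7 had 3 sham libraries but only 2 from TBI flies, because the authors had removed TBI replicate 3. The labels number these days D3, D6 and D10. The labels record female flies and the study's methods male flies of 3 to 7 days of age, and sex entered no calculation. Heads were separated from frozen bodies by shaking and sieving, and the RNA was amplified with T7 polymerase before sequencing. Nothing in the labels says that replicates came from separate cohorts of flies, so p-values measure only the spread between these libraries.

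Trypsins cut proteins after lysine or arginine, and chymotrypsin-like proteases cut mainly after large hydrophobic residues. In insects both are made as inactive precursors by enterocytes of the midgut and secreted into the gut lumen, where they digest dietary protein. In the adult fly the midgut lies in the thorax and abdomen, and of the gut the head holds only the foregut. Jonah genes were named for their expression in the gut and encode chymotrypsin-like proteases, yip7 encodes another protease of this kind, and the trypsin genes are told apart by Greek letters.

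The protease genes were near 0 in most libraries and abundant in 5. Counting a gene as held by a library when it was listed at 1 TPM or more, TBI replicates 1, 2 and 3 of day 1 held 25, 21 and 19 of the 32 genes. Sham replicate 2 of day 3 held 21, and TBI replicate 1 of day 7 held 22. Each of the other 12 libraries held between 1 and 3. The 5 libraries were thus all of the TBI libraries of day 1, 1 of 3 sham libraries of day 3 and 1 of 2 TBI libraries of day 7, so that the genes did not follow the injury label on every day. Sham replicate 2 of day 3 and TBI replicate 1 of day 7 stood apart from the other libraries of their own groups, and results that rest on either are given with and without it. The 5 libraries are set apart here by the protease genes themselves, and values of these genes in them are a description without a test.

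**Figure D1:**
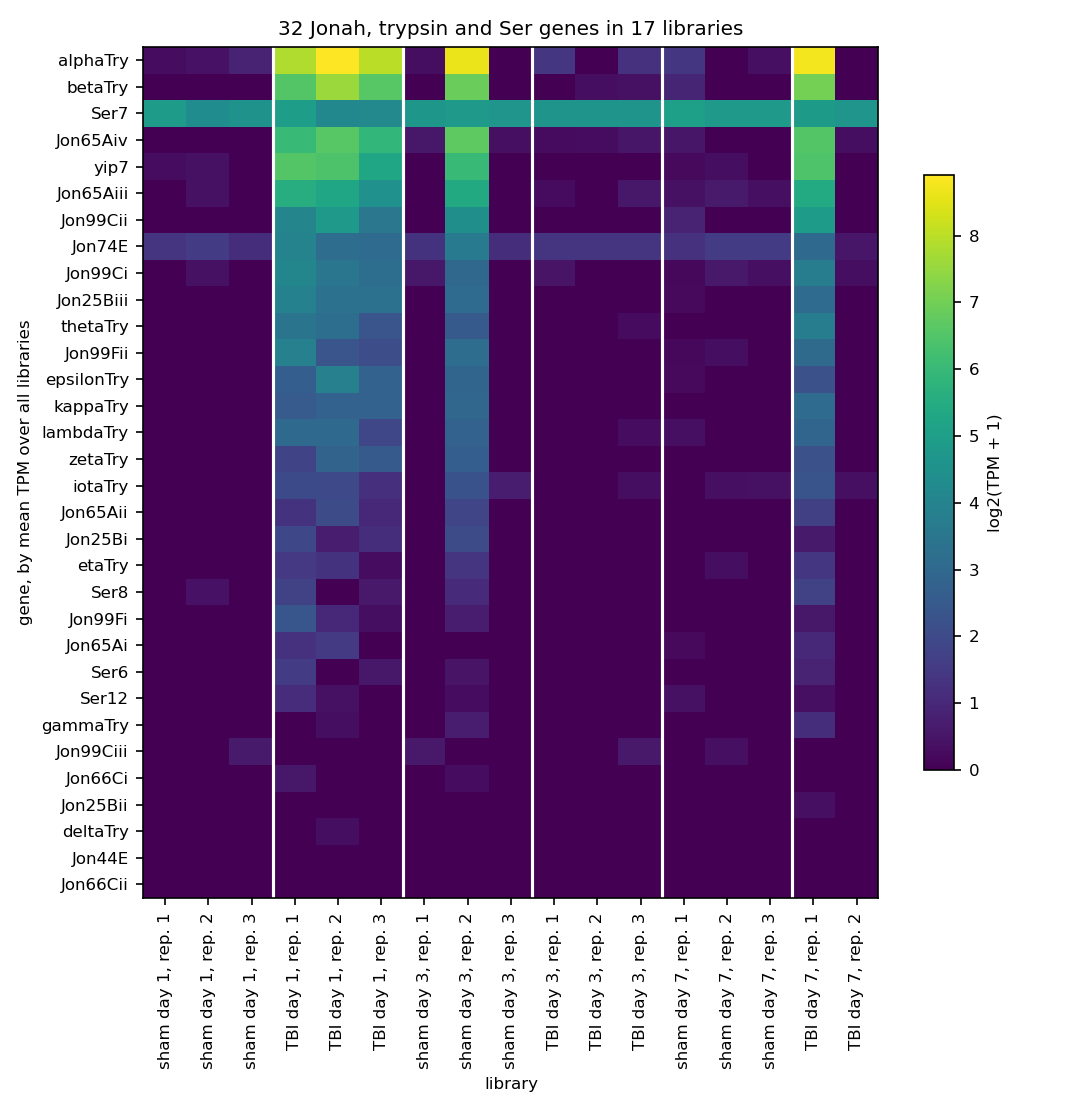
Heat map of the 32 genes (rows, in order of mean TPM) in the 17 libraries (columns, white lines between groups), coloured by log2(TPM + 1). The bright columns are the 3 TBI libraries of day 1, sham replicate 2 of day 3 and TBI replicate 1 of day 7, and the Ser7 row is at a like level in all 17.

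Without Ser7, which behaved differently from the rest, the genes summed to 644, 1001 and 535 TPM in TBI replicates 1, 2 and 3 of day 1. The sum was 828 TPM in sham replicate 2 of day 3 and 893 TPM in TBI replicate 1 of day 7. It lay between 1.23 and 7.17 TPM in the other 12 libraries. At the highest, in TBI replicate 2 of day 1, this was 0.118% of all listed TPM, so the proteases were a small part of the RNA even where they were abundant. The trypsin genes made up the larger share, with sums of 354 to 716 TPM in the 5 libraries against 121 to 208 TPM for the Jonah genes. The ratio of the trypsin to the Jonah sum was 1.83 in TBI replicate 1 of day 1, the lowest, and 3.60 in TBI replicate 2 of the same day, the highest.

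**Figure D2:**
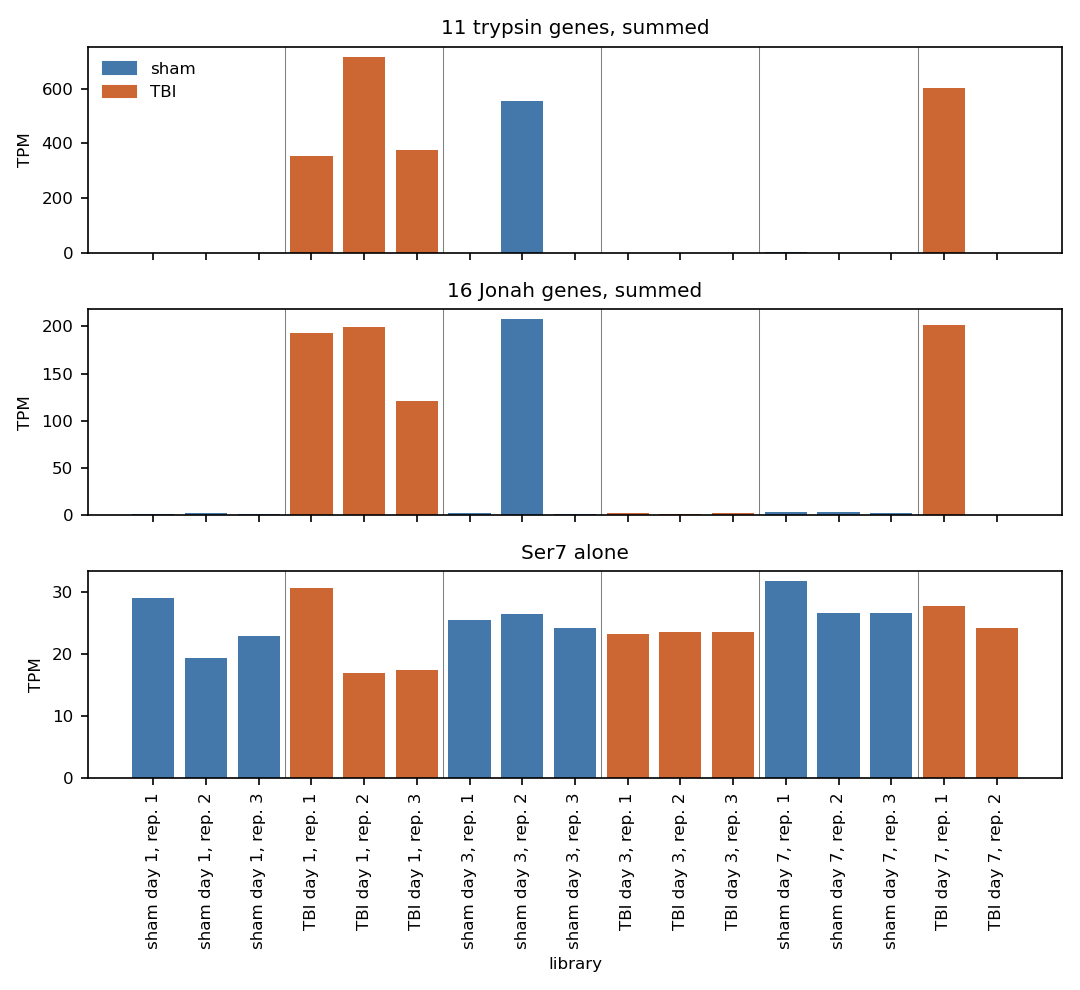
Summed TPM of the 11 trypsin genes and of the 16 Jonah genes, and TPM of Ser7, in each library (one bar a library, each axis from 0; blue, sham; orange, TBI). Trypsin and Jonah sums are high in the same 5 libraries, whereas Ser7 lies between 16.8 and 31.7 TPM throughout.

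Of the trypsin genes, alphaTry was the most abundant. It was listed at 229, 481 and 254 TPM in TBI replicates 1, 2 and 3 of day 1, at 402 TPM in sham replicate 2 of day 3 and at 429 TPM in TBI replicate 1 of day 7. The sham libraries of day 1 were at 0.229, 0.339 and 0.811 TPM, and no other library exceeded 1.67 TPM, the value of TBI replicate 1 of day 3. All 3 TBI libraries of day 1 were thus above all 3 sham libraries, and alphaTry alone made up 35.5% to 48.6% of the summed protease TPM without Ser7 in the 5 libraries. The second trypsin, betaTry, was listed at 90.6, 188 and 96.3 TPM in the TBI libraries of day 1 and at 0 in the sham libraries. In sham replicate 2 of day 3 it was at 117 TPM and in TBI replicate 1 of day 7 at 130.4 TPM, while no other library exceeded 0.874 TPM. The ratio of alphaTry to betaTry was 2.53, 2.55 and 2.64 in the TBI libraries of day 1, 3.45 in sham replicate 2 of day 3 and 3.29 in TBI replicate 1 of day 7, a narrower range than that of either gene.

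The other trypsins were found in the same libraries at levels below 14 TPM. In the TBI libraries of day 1, thetaTry was at 9.77, 8.34 and 4.05 TPM and epsilonTry at 5.38, 13.9 and 5.94 TPM. In sham replicate 2 of day 3 they were at 4.78 and 6.54 TPM, and in TBI replicate 1 of day 7 at 12.8 and 3.63 TPM. Both were listed at 0 in all 3 sham libraries of day 1 and in 11 of the 12 libraries outside the 5. In the 5 libraries lambdaTry ranged from 2.68 to 7.26, kappaTry from 4.95 to 7.59, zetaTry from 2.55 to 6.18 and iotaTry from 1.31 to 3.99 TPM, without overlap with the other 12. kappaTry and zetaTry were listed at 0 in all 12. etaTry reached 1.77 TPM and overlapped, since TBI replicate 3 of day 1 was at 0.234 TPM and sham replicate 2 of day 7 at 0.263 TPM. gammaTry was at 1.24 TPM or less and deltaTry at 0.257 TPM in TBI replicate 2 of day 1 alone. gammaTry and deltaTry are known as near-identical copies of each other and of the neighbouring CG30025 and CG30031, so reads may have been divided among them and their own levels are uncertain.

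Among the Jonah genes, Jon65Aiv was the most abundant. It was at 62.6, 95.9 and 58.1 TPM in the TBI libraries of day 1 and at 0 in the sham libraries. In sham replicate 2 of day 3 it reached 104 TPM, its highest value, and in TBI replicate 1 of day 7 it was at 91.4 TPM. Nothing above 0.476 TPM was seen elsewhere. yip7, a neighbour of Jon65Aiv, was at 91.4, 85.9 and 38.0 TPM in TBI replicates 1, 2 and 3 of day 1, and the sham values of that day were 0.217, 0.322 and 0 TPM. It was at 63.8 TPM in sham replicate 2 of day 3 and at 86.8 TPM in TBI replicate 1 of day 7. Jon65Aiii, from the same chromosomal group, was at 45.6, 37.6 and 21.5 TPM in TBI and 0, 0.333 and 0 TPM in sham flies on day 1, with 42.1 and 42.3 TPM in sham replicate 2 of day 3 and TBI replicate 1 of day 7. For all 3 genes the sham library of day 3 was within the range of the TBI libraries or above it.

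Jon99Cii, Jon99Ci, Jon25Biii and Jon99Fii followed at lower levels. Jon99Cii was at 15.8, 27.4 and 10.5 TPM in the TBI libraries of day 1, at 20.6 TPM in sham replicate 2 of day 3 and at 28.4 TPM in TBI replicate 1 of day 7. In the same order Jon99Ci was at 16.04, 10.3, 8.23, 6.95 and 12.5 TPM. Each was below 1 TPM in the other 12 libraries. Jon25Biii was at 14.2, 9.08, 9.08, 7.66 and 7.59 TPM in that order, and Jon99Fii at 13.8, 4.09, 3.32, 8.20 and 7.55 TPM. Jon99Cii, Jon25Biii and Jon99Fii were listed at 0 in all sham libraries of day 1, and Jon99Ci was at 0, 0.321 and 0 TPM there. Jonah genes of one locus were not equally abundant: Jon99Fi reached 4.24 TPM in TBI replicate 1 of day 1 and was at 1.01 TPM or less elsewhere, so that the ratio of Jon99Fii to Jon99Fi ran from 3.25 to 15.2. Jon65Aii, Jon25Bi and Jon65Ai stayed at 3.22, 3.13 and 1.87 TPM or less. Jon66Ci and Jon25Bii were below 1 TPM in every library, and Jon44E and Jon66Cii were listed at 0 in all 17. Copies of a Jonah pair resemble each other, and how reads were divided between them was not tested.

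Jon74E and Ser7 departed from the pattern of presence or absence. Jon74E, a chymotrypsin-like gene that stands alone, was listed above 0 in every library. Its sham values on day 1 were 1.54, 1.96 and 1.25 TPM, and its TBI values 14.7, 8.03 and 7.63 TPM. In sham replicate 2 of day 3 it was at 11.5 TPM, with 1.45 TPM in replicate 1 and 1.27 TPM in replicate 3, and it was at 7.25 TPM in TBI replicate 1 of day 7 against 0.454 TPM in replicate 2. It was thus low in all groups and higher in the same 5 libraries. Ser7, a serine protease gene on the X chromosome, was at 29.0, 19.4 and 22.8 TPM in sham and 30.7, 16.8 and 17.5 TPM in TBI flies on day 1, and the groups overlapped. On day 3 its sham values were 25.5, 26.5 and 24.2 TPM and its TBI values 23.3, 23.5 and 23.5 TPM, so that sham replicate 2 of day 3, high for the trypsins, was not set apart for Ser7. On day 7 the sham values were 31.7, 26.6 and 26.7 TPM, and the TBI values were 27.7 and 24.1 TPM.

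The other Ser genes were rare. Ser8 was at 2.42 TPM in TBI replicate 1 of day 1, 1.08 TPM in sham replicate 2 of day 3 and 2.39 TPM in TBI replicate 1 of day 7, but was listed at 0 in TBI replicate 2 of day 1. Ser6 reached 1.99 TPM and Ser12 1.20 TPM, both in TBI replicate 1 of day 1. Jon99Ciii was the only gene of the group found solely outside the 5 libraries, at 0.288 to 0.557 TPM in 4 others. Altogether 26 genes reached 1 TPM in some library and 6 did not, and 15 reached it in each of the 5 libraries and in no other. For 19 genes every one of the 5 libraries lay above every other library, as was the case for 296 of the 12665 genes listed above 0 anywhere. The count of 19 follows from how the 5 libraries were chosen.

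The order of the genes by level was much the same in all 5 libraries, while their shares varied. Over 31 genes, Ser7 left out, Pearson's r of log2(TPM + 1) between any pair of these libraries lay between 0.946 and 0.985 and Spearman's rho between 0.914 and 0.969. These are correlations across genes, which share the libraries and are not independent replicates. alphaTry was first in each library, and Jon65Aiv, yip7 and betaTry together with it held the first 4 places. In TBI replicate 1 of day 1 alphaTry was at 35.5% of the sum against 47.5% to 48.6% in the other 4 libraries, and yip7 at 14.2% against 7.10% to 9.72%. The ratio of Jon25Biii to Jon25Bi ran from 2.45 to 14.7. The sham library of day 3 correlated with the TBI libraries of day 1 at r between 0.960 and 0.985, no lower than these did with one another (0.946 to 0.977).

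Many of the genes lie next to each other, as the band numbers in Jonah symbols already imply, and most have a single exon. By the release 6 annotation, counted from 1, 26 of the 32 lie in 6 clusters and 6 stand alone. All 11 trypsin genes lie on chromosome arm 2R between 11336840 and 11357537, a span of 20698 bases. yip7 and the Jon65A genes lie on 3L between 6035216 and 6054443. Jon25Biii, Jon25Bii and Jon25Bi lie on 2L between 4949941 and 4955144, Jon99Ciii, Jon99Cii and Jon99Ci on 3R between 29922216 and 29926189, and Jon99Fii and Jon99Fi on 3R between 30487016 and 30489895. Genes of 1 exon number 25, those of at most 2 exons 5, and only Jon74E and Ser7 have 3. These latter were also the only genes of the group above 0 in all 17 libraries. Gene length ran from 810 to 1397 bases, except for Ser7 with 1838 bases.

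Neighbours within a cluster differed widely in level. Along the trypsin cluster, thetaTry, alphaTry, epsilonTry and betaTry lie next to each other, and epsilonTry was at 5.38 TPM in TBI replicate 1 of day 1 where alphaTry was at 229 and betaTry at 90.6 TPM. Protein-coding genes inside the clusters that are not part of the group were low. CG30025 reached 1.44 TPM in sham replicate 3 of day 3, a library in which alphaTry was listed at 0. CG13202, also within the trypsin cluster, reached 1.46 TPM in sham replicate 2 of day 1. CG6462, between yip7 and Jon65Aiv, was at 0.166 TPM in sham replicate 2 of day 3 and listed at 0 in the other 16 libraries.

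**Figure D3:**
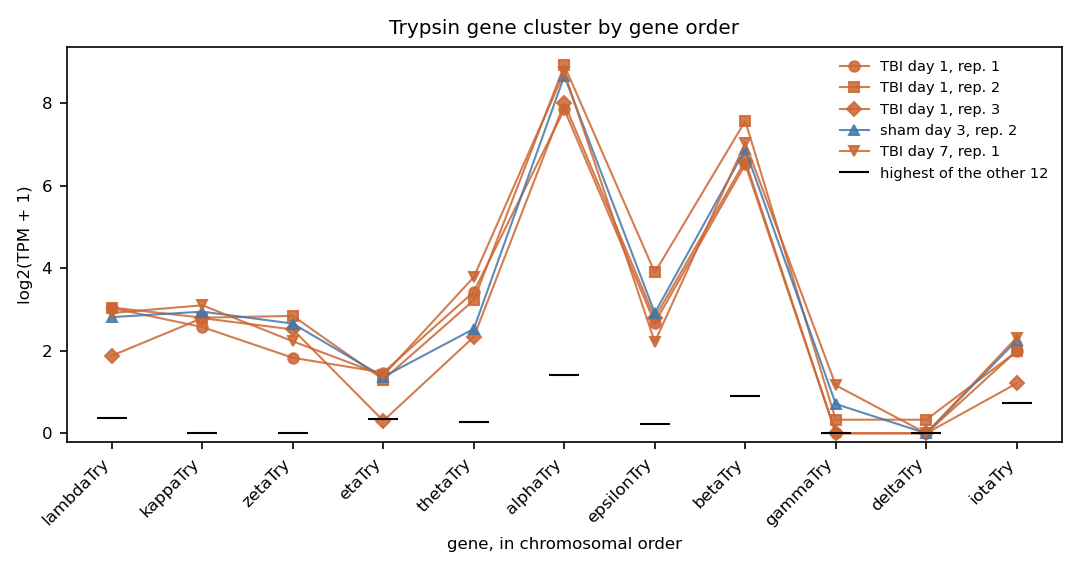
Level of the 11 trypsin genes, as log2(TPM + 1), in their order along the chromosome, in the 5 libraries that held them (orange, TBI; blue, sham) and the highest value of the other 12 libraries (black bars). alphaTry and betaTry stand above their neighbours in each library, and the sham library runs among the TBI libraries.

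The comparison of TBI with sham within each day asked which genes differed in the glial pulldown after injury. It was made by limma on log2(TPM + 1) over all genes above 0 in some library of the day. A gene was called when its absolute difference reached 0.6 and its p, adjusted after Benjamini and Hochberg, did not exceed 0.1. The pulldown also held RNA of other cells, with the photoreceptor gene ninaE at 22565 TPM or more in every library. Which cells a difference came from was not tested. On day 1, 16 of the 29 protease genes tested were called higher in TBI and 0 lower, where 2.19% of the 12085 genes tested were called higher. The called genes were 8 of 11 trypsins, 7 of the 13 Jonah genes tested, and yip7, and 0 of the 4 Ser genes. At an unadjusted p under 0.05 were 20 of the 29, and 2198 of the 12085 genes. The median difference was 2.06 for the 29 genes against 0.02 for all genes. It was 4.57 with a pseudocount of 0.1, and 3.12 over the protease genes with a mean of at least 1 TPM. All 3 TBI libraries lay above all 3 sham libraries for 20 of the 29, as they did for 10.1% of all genes tested. The 3 genes not tested, Jon25Bii, Jon44E and Jon66Cii, were at 0 in all 6 libraries, and genes that were listed above 0 only through the TBI libraries could not have been lower.

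The largest difference was that of alphaTry, 7.73 on the log2(TPM + 1) scale (SE 0.30, limma adjusted p = 0.0118). Those of betaTry and Jon65Aiv were 6.90 (SE 0.27) and 6.16 (SE 0.21), both with an adjusted p of 0.0118. yip7 differed by 5.86 (SE 0.25, adjusted p = 0.0131) and Jon65Aiii by 4.96 (SE 0.27, adjusted p = 0.0206). These values depend on the pseudocount of 1 because the sham libraries were at or near 0. Jon74E, for which sham levels were above 0, differed by 2.06 (SE 0.27, adjusted p = 0.0714). The remaining 10 called genes differed by 1.73 (iotaTry) to 4.14 (Jon99Cii), with adjusted p-values between 0.0231 and 0.0901. Jon65Aii lay just outside at 1.47 (adjusted p = 0.108). Ser7 differed by -0.16 (SE 0.13, adjusted p = 0.572) and Jon99Ciii by -0.21 (SE 0.17, adjusted p = 0.562).

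The calls of day 1 rested on all 3 replicates. Without replicate 1, 12 of the genes were called, without replicate 3, 9 were, and without replicate 2 only 3 (alphaTry, betaTry and Jon65Aiv), while every one of the 16 differences stayed positive, at 1.60 or more. Over all genes the calls fell as well, from 346 to between 10 and 214 with a replicate left out. Under the other alternatives between 11 and 18 protease genes were called, among 132 to 684 genes in all.

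**Figure D4:**
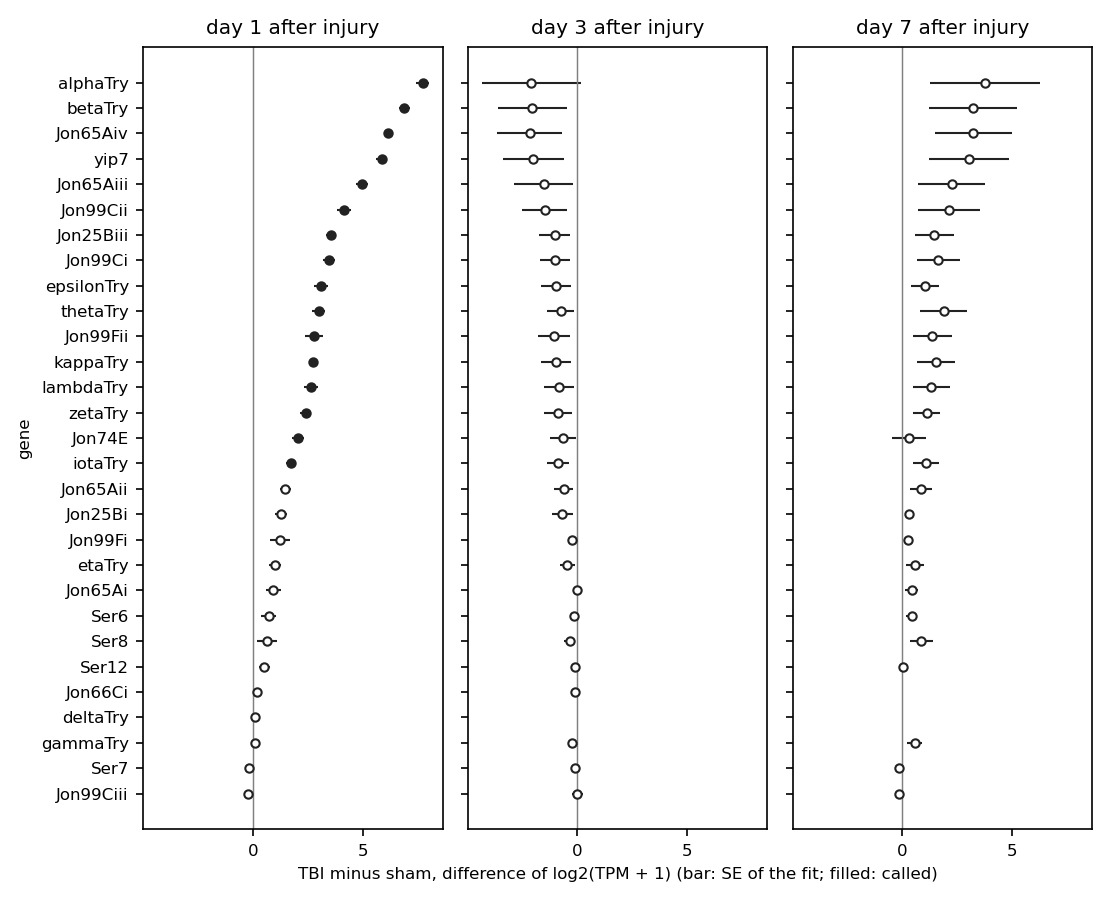
Difference between TBI and sham libraries in log2(TPM + 1) for the protease genes tested on day 1, on days 1, 3 and 7 (points; bars, standard error of the limma fit; filled points, called). The 16 filled points are all on day 1. For these genes the bars are longer on days 3 and 7, where they were high in 1 library of a group. For some rare genes, such as Jon99Fi and Ser6, the bars are shorter on those days.

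On day 3, 0 of the 28 protease genes tested were called, and 0 were at an unadjusted p under 0.05. Over all genes 0% of the 11835 tested were called, with 688 at an unadjusted p under 0.05. All 28 differences were negative, with a median of -0.80 against 0.03 for all genes, and the lowest adjusted p was 0.818. Sham replicate 2 set that direction. alphaTry differed by -2.09 (SE 2.26, adjusted p = 0.833), and by 1.19 (adjusted p = 0.938) without replicate 2 of both groups. The median was then 0.12, over only the protease genes still above 0 in some library kept. Genes such as yip7, at 0 in those libraries, dropped out, so this median and that of -0.80 cover different genes. In no protease gene did all TBI libraries lie above all sham libraries, as they did for 4.35% of all genes. Ser7 was the only protease gene with all TBI libraries below all sham libraries, at a difference of -0.11 (SE 0.13, adjusted p = 0.841). The same held for 371 of the 11835 genes tested.

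On day 7, 0 of 28 genes were called and 0 were at an unadjusted p under 0.05, as against 0% called of 11966 genes and 504 genes at an unadjusted p under 0.05. The differences were positive for 26 of the 28 and for 76.9% of all genes, with a median of 1.06 over the 28. The median of all genes was 0.23 on this day, and among genes of at least 1 TPM on average it was 0.29, which median-of-ratios scaling lowered to 0.02 and upper-quartile scaling to 0.0043. alphaTry differed by 3.78 (SE 2.49, adjusted p = 0.717), with 429 and 0 TPM in the 2 TBI libraries and 1.65, 0 and 0.293 TPM in the sham libraries. Without TBI replicate 1 the median was -0.13, over only the protease genes still above 0 in some library kept, and the difference of alphaTry was -0.59. Without TBI replicate 2 it was 8.16 (adjusted p = 0.0202) and 23 of the protease genes were called among 1375 genes in all, with the remaining library assumed to vary like the sham libraries. In no gene did both TBI libraries lie above all 3 sham libraries, as they did for 15.1% of all genes.

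An interaction term then tested whether the days differed in the effect of TBI. Between day 3 and day 1, 0 of 29 protease genes were called and 20 were at an unadjusted p under 0.05, where 0.0161% of 12446 genes were called and 1620 were at an unadjusted p under 0.05. The lowest adjusted p was 0.167, the median difference was -2.73 and that of alphaTry was -9.82 (SE 2.66, adjusted p = 0.250). With sham replicate 2 of day 3 left out and no block, 17 of the protease genes were called among 167 genes in all, and alphaTry differed by -6.99 (adjusted p = 5.9e-04). Between day 7 and day 1, 0 of 30 genes were called and 1 was at an unadjusted p under 0.05, epsilonTry (-2.09, SE 0.76), where 0.04% of 12493 genes were called and 475 were at an unadjusted p under 0.05. With TBI replicate 1 of day 7 left out, 14 were called among 154 genes in all. The sham and TBI libraries of day 1 enter both interactions. For day 3 against day 1, 1 protease gene (60 genes in all) was called without the block and with all libraries kept, and 6 (100 in all) were called when only genes with a mean of 1 TPM or more were tested.

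Other digestive genes, from lists not drawn from the group, moved in part with it. Of 15 other serine protease genes of this fold tested on day 1, 4 were called higher and 0 lower (CG10472, CG11911, CG17571 and CG18180). Of all 12085 genes tested, 2.19% were called higher. CG10472 was at 2.51, 0.621 and 2.72 TPM in sham and 42.0, 53.5 and 31.9 TPM in TBI flies on day 1, and at 59.7 TPM in sham replicate 2 of day 3. It differed by 3.94 on day 1 (SE 0.42, adjusted p = 0.0510). CG11911 was at 9.55, 9.86 and 11.2 TPM in the TBI libraries of day 1 and highest, at 20.0 TPM, in sham replicate 2 of day 3. CG8329, by far the most abundant of the list, was at 258 to 370.4 TPM in the 5 libraries and at 290.0 to 536 TPM in the other 12, and its difference on day 1 was -0.36 (SE 0.10, adjusted p = 0.200). Proteases of this fold were therefore not all restricted to the 5 libraries.

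The counts of called genes in the lists below stand against 2.19% of all 12085 genes called higher on day 1. Of 18 carbohydrases tested on day 1, 3 were called higher (Mal-A3, LManV and LManVI, a maltase and lysosomal-type mannosidases) and 1 lower (tobi, a glucosidase). Amy-d, an amylase that digests starch, was at 8.20, 3.54 and 11.8 TPM in sham and 8.76, 12.1 and 4.30 TPM in TBI flies on day 1, and the groups overlapped. Of 6 genes of the peritrophic matrix and mucins, which line the gut lumen, 2 were called higher and 0 lower. Peritrophin-15a was at 16.5, 29.1 and 12.9 TPM in the TBI libraries of day 1, at 8.17 TPM in sham replicate 2 of day 3, at 17.8 TPM in TBI replicate 1 of day 7 and listed at 0 in the other 12. Its difference on day 1 was 4.28 (SE 0.29, adjusted p = 0.0261). Of 10 genes known for midgut identity or function 3 were called higher (cad, mag and Myo31DF) and 0 lower. cad, a homeodomain factor of the posterior gut, was at 2.08, 6.48 and 7.396 TPM in the TBI libraries of day 1, at 9.07 TPM in sham replicate 2 of day 3, at 32.1 TPM in TBI replicate 1 of day 7 and at 0.332 TPM or less elsewhere. mex1, a marker of the midgut epithelium, was at 12.5, 5.95 and 2.33 TPM in TBI and 0, 0.795 and 0 TPM in sham flies on day 1 (difference 2.48, SE 0.48, adjusted p = 0.129). On day 1 the midgut list summed to between 17.8 and 25.1 TPM in sham and between 42.5 and 74.1 TPM in TBI flies. Most of each sum was Myo31DF, at 13.9 to 18.2 TPM in sham and 24.8 to 46.0 TPM in TBI flies. Over all libraries the sums overlapped, with 38.8 TPM in sham replicate 2 of day 3 and 39.8 TPM in sham replicate 1 of day 7. GATAe, a factor that defines the midgut, was listed at 0 in all sham flies of day 1, whereas the TBI values were 0.676, 0.446 and 0.357 TPM. cad, mex1 and GATAe, and also mag, Myo31DF, Vha100-4 and nub, were higher in each TBI library of day 1 than in any sham library of that day. This held for 10.1% of all genes tested. It did not hold for lab, Myo61F and Npc1b. In all 5 libraries 4 of the 10 genes were above the other 12, as were 296 of the 12665 genes listed above 0 anywhere. lab differed by -0.27 on day 1 (SE 0.18, adjusted p = 0.515). In sham replicate 2 of day 3 nub was listed at 0, against 0.552 TPM in replicate 3, and Myo31DF was at 15.8 TPM, below replicates 1 and 3 at 22.0 and 19.5 TPM. The part of the midgut genes in the protease values was not tested. On day 3 and day 7, 0 genes of these lists and 0 of all genes were called by limma. At an unadjusted p under 0.05, in either direction, were 7 of 15 other proteases and 8 of 18 carbohydrases on day 1. So were 3 of 6 peritrophic and mucin genes and 8 of 10 midgut genes, against 2198 of all 12085 genes. In the same order the counts of day 3 were 0 of 14, 3 of 18, 0 of 4 and 1 of 10, against 688 of 11835 genes. Those of day 7 were 1 of 16, 1 of 17, 1 of 6 and 0 of 10, against 504 of 11966 genes.

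**Figure D5:**
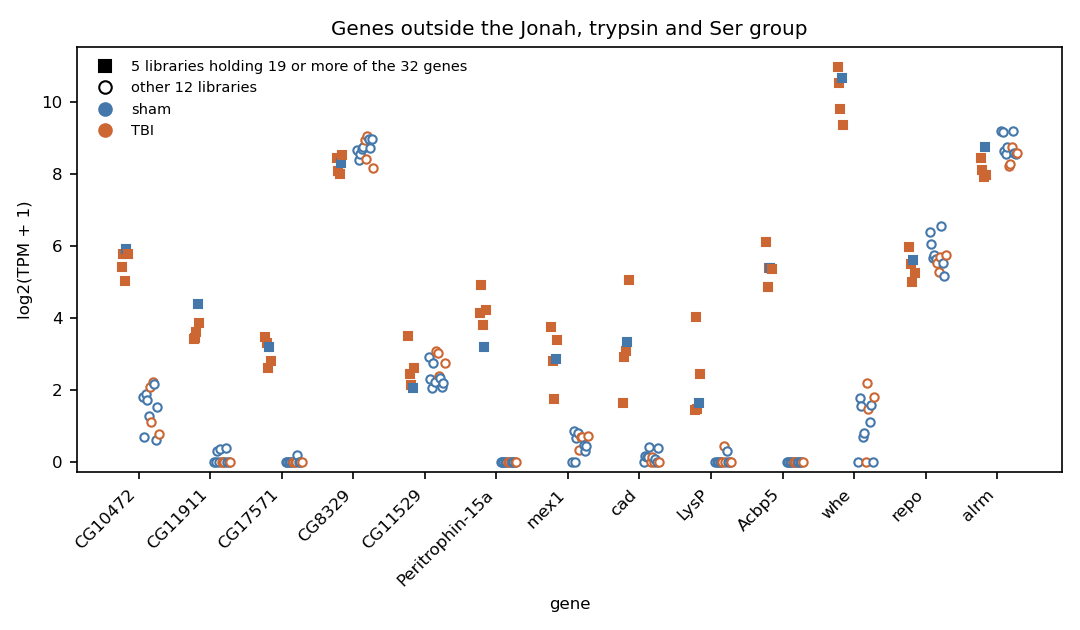
Levels of 13 genes outside the group, as log2(TPM + 1), in the 5 libraries that held 19 or more of the protease genes (squares) and in the other 12 (circles); blue, sham; orange, TBI. CG10472, CG11911, CG17571, Peritrophin-15a, mex1, cad, LysP, Acbp5 and whe separate the squares from the circles, whereas CG8329, CG11529, repo and alrm overlap. The 13 genes were picked by hand and do not stand for their lists. Such separation was seen for 4 of 16 other protease, 7 of 18 carbohydrase, 4 of 10 midgut, 1 of 6 lysozyme and 2 of 6 peritrophic and mucin genes. Over all genes it was seen for 296 of 12665.

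The genes most like the group were chosen by Pearson's r, over the 17 libraries, between their log2(TPM + 1) and the mean over the 32 genes, among 5343 genes with a mean of at least 10 TPM. They were Acbp5 (r = 0.992), CG14292 (0.990), CG43680 (0.986), CG33109 (0.984) and whe (0.983). Acbp5, which encodes an acyl-CoA binding protein, was at 67.5, 28.0 and 40.6 TPM in the TBI libraries of day 1, at 40.7 TPM in sham replicate 2 of day 3, at 39.7 TPM in TBI replicate 1 of day 7 and listed at 0 in the other 12. whe was at 2034, 1481, 894, 1650 and 665 TPM in that order and at 3.54 TPM or less in the others. The points share libraries, and the r values rest on the contrast between 5 high and 12 low ones. Within the group, r with the mean of the other genes was 0.953 to 0.998 for the 16 genes called on day 1 and -0.122 for Ser7. For the other uncalled genes that reached 1 TPM it ran from 0.658 (gammaTry) to 0.970 (Jon65Aii). The called genes are high in the TBI libraries of day 1 by selection, so their high r follows in part from that choice.

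Part of the glial markers were called lower on day 1, and most of their differences were negative. The glial genes repo and alrm, which define glia and astrocytes, were listed in every library, at 31.1 to 92.7 and 243 to 591 TPM. Of 12 glial genes tested on day 1, 0 were called higher and 4 lower (alrm, Mdr65, Tret1-1 and wrapper), where 81 of the 12085 genes were called lower. At an unadjusted p under 0.05 were 10 of the 12, against 2198 of all genes, and 1 of the 12 differences was positive. Gs2, which was not called, was the largest of the 12, at 2724 to 4145 TPM in sham and 1996 to 2701 TPM in TBI flies on day 1. The sum of the 12 on day 1 lay between 4785 and 6765 TPM in sham and between 3482 and 4814 TPM in TBI flies. In sham replicate 2 of day 3 it was 3977 TPM, below replicates 1 and 3 at 4087 and 4701 TPM, and in TBI replicate 1 of day 7 it was 2433 TPM against 2998 TPM in replicate 2. Photoreceptor genes summed to between 46192 and 47735 TPM in sham and between 26610 and 34930 TPM in TBI flies on day 1, and 0 of 9 were called by limma, with 5 at an unadjusted p under 0.05. Of 5 neuronal genes 0 were called (1 at an unadjusted p under 0.05), of 7 head fat body genes 0 (5) and of 6 hemocyte genes 0 (0). The number of genes above 0 was 10351 to 11350 in the 5 libraries and 9880 to 10670 in the other 12. The part of these differences in the protease values was not tested, and in RNA pulled down from pooled heads a change in the number of cells cannot be told apart from a change in RNA per cell. Read depth is unknown, since TPM do not keep it.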

How the data were processed

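The deposited values are TPM per gene, which the authors made with kallisto from single-end reads and FlyBase transcript sequences, and summed over each gene's transcripts by tximport. TPM hold no counts, so no count test was run and no counting interval is given. A value of 0 may be a failed estimate. All 17 columns matched a sample by title, and 0 were of no sample. Of 13479 identifiers 13128 (97.4%) had a symbol in the reference table.

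TBI and sham libraries were compared within days by limma 3.58.1 (R 4.3.3) with a trend on log2(TPM + 1), with a block for replicate on day 1 and day 3, after the study's methods. Day 7 was fitted without it, which the methods text does not state. The fits were tested on simulated data. Descriptions used pandas 2.3.3 and matplotlib 3.10.9 under Python 3.11.15. Library values are given in full for up to 12 called genes in order of mean TPM and for Ser7 and Jon74E. Clusters join genes with gaps of at most 30000 bases. The limit of 10 genes that separates the 5 libraries was set after the values were seen. The genes and lists were chosen with earlier results of these data known. Sequences were not used here. Alternatives covered the block, scaling, pseudocount, filter, thresholds, a joint fit and each replicate left out.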

Additional observations from a re-analysis of the deposited data

How the results depend on the processing

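On day 1 the 16 calls among the protease genes changed to 17 with no replicate block, 16 under either scaling and under a filter at a mean of 1 TPM, 18 with a pseudocount of 0.1, 11 at thresholds of 1 and 0.05, 12 in a joint fit of all libraries, and 3 to 12 when a replicate was left out. All genes called, 346, became 684 under that filter, 132 at the stricter thresholds and 10 to 214 with a replicate left out. On day 3 all genes called, 0, became 1 with no replicate block, 3 under that filter and 1 in the joint fit. alphaTry, -2.09 with all libraries, ran from -3.78 to 1.19 with a replicate left out and turned to 0.74 without sham replicate 2 and with no replicate block. On day 7 all genes called, 0, became 2 under that filter, 8 in the joint fit and 0 to 1375 with a library left out, and the protease genes called 0 to 23. With a library left out alphaTry ran from -0.59 to 8.16 and yip7 from -0.18 to 6.27, the negative values being those without TBI replicate 1. For day 3 minus day 1, all genes called, 2, became 60 with no replicate block, 4 with a pseudocount of 0.1, 100 under that filter and 167 with both sham replicate 2 of day 3 and the replicate block left out, and the protease genes called, 0, became 1, 0, 6 and 17. For day 7 minus day 1, all genes called, 5, became 0 with the replicate block, 1 with a pseudocount of 0.1, 3 under that filter, 1 at the stricter thresholds and 154 without TBI replicate 1, when 14 protease genes were called. The cause of these changes was not tested, except that fewer genes or libraries enter some fits. Each library's deviations from the mean log2(TPM + 1) of its group were also correlated, over 8766 genes. Between same-numbered sham and TBI libraries these deviations correlated at 0.376, 0.0042 and 0.216 on day 1 and at 0.451, 0.143 and -0.0291 on day 3. Between differently numbered ones the values ran from -0.3335 to 0.1792 on day 1 and from -0.3435 to 0.2283 on day 3. On day 7 the same-numbered values were 0.224 and 0.124, but the deviations of only 2 TBI libraries mirror each other. The numbers thus do not pair every sham with its TBI library, and the block on day 1 and day 3 is a choice taken from the study's methods. The 5 libraries held 12 to 15 of the genes at a limit of 5 TPM and 23 to 27 at 0.1 TPM, and the other 12 held 1 and 4 to 15. Depth is unknown, so no limit of detection can be given.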

Other observations

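Gut lysozymes, antibacterial enzymes of the digestive tract, summed to 3.07 to 16.2 TPM in the 5 libraries with the proteases and to at most 2.08 TPM in the other 12. Only 1 of 6, LysP, was itself higher in all 5 than in each of the other 12, as were 296 of the 12665 genes listed above 0 anywhere. LysX was at 5.56 TPM in TBI replicate 1 of day 1 but listed at 0 in TBI replicate 2. LysB and LysD were highest outside the 5, at 0.772 TPM in TBI replicate 1 and 0.588 TPM in sham replicate 3 of day 3. Of the 6 tested on day 1, 0 were called by limma and 1 was at an unadjusted p under 0.05. Of all 12085 genes tested, 346 were called and 2198 were at an unadjusted p under 0.05. LysP was at 1.69, 15.1 and 1.78 TPM in the TBI libraries of day 1, at 2.11 TPM in sham replicate 2 of day 3 and at 4.38 TPM in TBI replicate 1 of day 7, and was listed at 0 in all 3 sham libraries of day 1. The maltase gene Mal-A1 was also higher in each of the 5 libraries than in the other 12, where it reached 2.12 TPM. Within the 5 libraries Mal-A1 did not keep the same order as alphaTry. It was at 13.1 TPM in TBI replicate 1 of day 1 and at 18.3 TPM in TBI replicate 1 of day 7, against 2.84 and 2.56 TPM in TBI replicates 2 and 3 of day 1 and 2.75 TPM in sham replicate 2 of day 3.

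In the other 12 libraries the protease genes were not always at 0. Sham replicate 1 of day 7 listed 15 of the 32 above 0, the most of the 12, with a sum without Ser7 of 7.17 TPM, and TBI replicate 3 of day 3 listed 10, with 5.46 TPM. In sham replicate 1 of day 7 the highest besides Ser7 were alphaTry at 1.65, Jon74E at 1.43 and betaTry at 0.874 TPM.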
